A study of Mus musculus with 8 samples.

Results

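This report follows 10 mouse genes that are classically induced by interferon-gamma (IFN-γ): the guanylate-binding protein genes Gbp2, Gbp3, Gbp4 and Gbp7, the immunity-related GTPase genes Irgm1, Irgm2 and Igtp, the chemokine genes Cxcl9 and Cxcl10, and the transcription factor gene Irf1. They were chosen by name from the 35458 genes quantified, of which 15207, all 10 among them, were expressed highly enough to be tested. The RNA came from subcutaneous tumors of N2A (Neuro-2a) cells, a mouse neuroblastoma line, grown in A/J mice, which share the strain background of the line. The study's methods describe female mice, 4 weeks old when bought, in which treatment began once the tumor could be felt and lasted 8 days. The 4 SR59230A tumors (numbered 1 to 4) came from mice given the β3-adrenergic blocker SR59230A, dosed 2 times a day at 10 mg/kg into the peritoneum, and the 4 vehicle tumors (numbered 0 to 3) from mice given physiological solution. All 8 tumors grew from a single cell line, and no genetic change separated the groups. Whole tumor mass was sequenced as total RNA, so each value mixes tumor cells with the host cells around them, and fewer cells of a type cannot be told apart from less RNA per cell.

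IFN-γ is released mainly by T cells and natural killer (NK) cells and acts through a receptor of a pair of chains (Ifngr1, Ifngr2) and the kinases Jak1 and Jak2, a route that ends at gamma-activated sites (GAS) in promoters. Irf1 is among the genes switched on first, and its protein binds interferon-stimulated response elements (ISRE) in later targets. Guanylate-binding proteins and immunity-related GTPases gather on membranes that enclose microbes, Irgm1, Irgm2 and Igtp being regulatory members of the second family, while Cxcl9 and Cxcl10 draw cells bearing the receptor CXCR3.

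In the GRCm38 annotation (GENCODE vM21) the 10 genes, all protein-coding, lie on 3 chromosomes. On chromosome 3, plus strand, Gbp7 is at chr3:142530342-142550149, Gbp3 at chr3:142560026-142573209 and Gbp2 at chr3:142620602-142638008. On chromosome 5, minus strand, Cxcl9 is at chr5:92321347-92328079, Cxcl10 at chr5:92346638-92348889 and Gbp4 at chr5:105115767-105139586. On chromosome 11 are Irgm1 at chr11:48861968-48871683 on the minus strand, and Irf1 at chr11:53770014-53778374, Igtp at chr11:58199556-58207591 and Irgm2 at chr11:58199618-58222782 on the plus strand. Cxcl10 lies inside Art3, which is on the opposite strand; the library kit keeps strand, but the setting used in counting is not given in the sources used here.

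Promoter stretches are shown because they let the genes be sorted by the sites through which IFN-γ is known to act. RefSeq promoters (build GRCm38.p6) were found for 9 of the 10 genes, and the 250 bases before each start were searched on both strands for the GAS letters TTCNNNGAA and the ISRE letters GAAANNGAAA. A GAS match was found for 4 genes (Gbp7, Irf1, Igtp, Irgm2) and an ISRE match for 7 (Gbp2, Gbp3, Gbp7, Irgm1, Igtp, Irgm2, Cxcl10), so that 3 had both, 8 had at least 1 of them, and Cxcl9 had neither in this window. Among all 32851 promoters of the same length, 7.02% held the GAS letters and 2.98% the ISRE letters. These shares count promoters, whereas the matches above count genes, the 9 genes having 11 promoters. A match is a description of the sequence and not a measured site. The stretches around the matches of 6 genes read as follows, 5′ to 3′ along each gene, with the matched letters in capitals; overlapping matches in Gbp3 run together.
Irf1, chr11:53769914-53769942 (+ strand): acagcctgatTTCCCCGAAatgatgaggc
Gbp7, chr3:142530220-142530302 (+ strand): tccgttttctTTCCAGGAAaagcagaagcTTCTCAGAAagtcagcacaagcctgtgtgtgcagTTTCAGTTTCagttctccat
Gbp3, chr3:142559989-142560024 (+ strand): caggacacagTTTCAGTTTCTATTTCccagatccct
Igtp, chr11:58199501-58199541 (+ strand): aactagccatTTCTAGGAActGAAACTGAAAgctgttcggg
Irgm2, chr11:58214892-58214932 (+ strand): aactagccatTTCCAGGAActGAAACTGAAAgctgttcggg
Cxcl10, chr5:92349083-92349112 (- strand): tcacgctttgGAAAGTGAAActtacctcac
None of these 6 stretches overlapped an annotated exon. Irf1 carried a GAS match alone, 90 bases before its start, and Cxcl10 an ISRE match alone, 213 bases before its start. Gbp7 had GAS matches beginning 106 and 87 bases before its start and an ISRE match beginning 53 bases before it. Igtp and Irgm2, neighbors on chromosome 11, had a GAS match followed directly by an ISRE match, and their stretches were identical at 40 of 41 bases. The Irgm2 stretch lies inside the annotated span of Irgm2: it precedes the RefSeq start, near which the annotated transcript with 26.0% of Irgm2 reads begins, while the transcript with 74.0% of reads begins beside the start of Igtp. The Gbp3 stretch precedes a RefSeq start near which the annotated transcript with 10.4% of Gbp3 reads begins. The transcript with 86.4% of Gbp3 reads begins at chr3:142560411, and another RefSeq promoter of Gbp3 held no match.

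The libraries held 23484190 to 44045575 estimated reads. In 3 of them, vehicle tumors 0 and 3 and SR59230A tumor 4, 6.43% to 11.8% of reads fell on a few satellite-like gene models, against 0.005% to 0.713% in the other 5. SR59230A tumors 1 and 2 carried skeletal muscle transcripts, their 9 muscle markers summing to 1020 and 96.8 TPM (length-corrected transcript units), against 11.0 to 38.6 TPM in the other 6. The fold changes of the 10 genes were also computed without either set of libraries.

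Between genes, levels were compared in TPM, which corrects for transcript length. Irf1 stood highest at 22.4 ± 7.12 TPM (SD, n = 8 tumors), above Irgm1 (9.92 ± 2.66 TPM) in 8 of 8 tumors. Below them came Cxcl10 (7.07 ± 4.2 TPM), Igtp (5.12 ± 1.67 TPM), Irgm2 (3.60 ± 1.02 TPM), Gbp7 (1.79 ± 0.644 TPM), Gbp3 (1.40 ± 0.678 TPM), Gbp4 (1.36 ± 0.834 TPM), Gbp2 (0.769 ± 0.200 TPM) and Cxcl9 (0.379 ± 0.343 TPM). Each gene exceeded the next in at least 7 of the 8 tumors except at 3 places: Cxcl10 was above Igtp in 6 tumors, Gbp4 above Gbp2 in 6, and Gbp3 above Gbp4 in 5. Among the genes followed here, the immunity-related GTPases therefore stood above the guanylate-binding proteins in mean level, with Cxcl10 among the higher genes and Cxcl9 the lowest.

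For none of the 10 genes did a test separate SR59230A from vehicle tumors. A call needed an adjusted p below 0.05 together with a log2 fold change of 0.5 or more in size. By this rule edgeR's quasi-likelihood test called 0 of the 10 (adjusted p 0.998 to 1.00), and 0 of all 15207 genes tested (0%). At an unadjusted p under 0.05 it marked 0 of the 10, with 4.58% of all genes marked. DESeq2 at the same thresholds called 0 of the 10 (adjusted p 0.999) and 0.194% of the 18531 genes it tested. The SR59230A and vehicle values overlapped for all 10 genes, while over all genes tested 1.32% had every SR59230A tumor higher and 1.29% every SR59230A tumor lower. The log2 fold change of SR59230A over vehicle was above 0 for 6 of the 10 genes, with 49.6% of all genes above 0, and its median over the 10 was 0.06, with -0.0017 over all genes tested. Exact two-sided permutation tests on log2 scaled counts gave p from 0.257 to 1.00 for the 10 genes; 4 tumors against 4 cannot give a p below 0.0286. These p-values measure the spread between the sampled tumors, and the labels do not say that each came from another mouse.

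**Figure D1:**
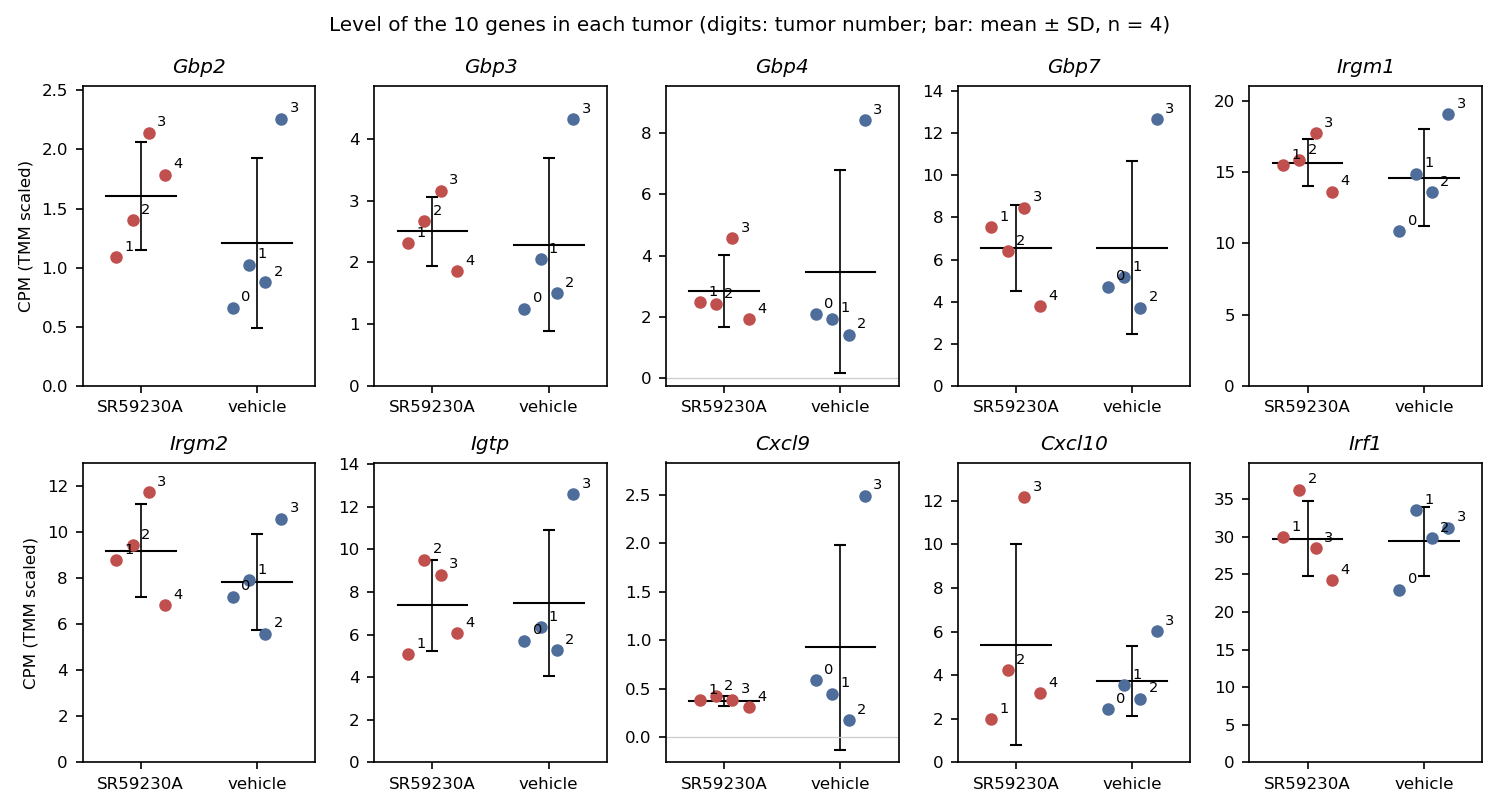
Level of each gene in each tumor, in CPM scaled by TMM (vertical axes, from 0 or just below), SR59230A tumors left and vehicle tumors right, each point labelled with its tumor number; bars are mean ± SD, n = 4. Vehicle tumor 3 was the highest of all 8 tumors for 7 genes, and the groups overlapped for all 10.

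Levels within a gene are given below in CPM, the counts set against each library's total after scaling by edgeR's TMM factors. Irf1, the transcription factor, varied least over the 8 tumors in CPM (coefficient of variation 14.9%). In TPM it did not, as Gbp2, Irgm1 and Irgm2 varied less relative to their means. Irf1 had 30.0, 36.3, 28.5 and 24.3 CPM in SR59230A tumors 1 to 4, against 23.0, 33.6, 29.9 and 31.2 CPM in vehicle tumors 0 to 3. The means were 29.8 ± 4.97 CPM in SR59230A tumors and 29.4 ± 4.56 CPM in vehicle tumors (SD, n = 4 each). Its highest tumor was SR59230A tumor 2 and its lowest vehicle tumor 0, with the other vehicle tumors inside the SR59230A range. The log2 fold change was 0.02 ± 0.16 (SE) with a 95% interval of -0.33 to 0.37, which on the linear scale spans 0.794 to 1.29 (exact permutation p = 0.914).

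Among the regulatory immunity-related GTPases, Irgm1 had 15.5, 15.8, 17.7 and 13.6 CPM in SR59230A tumors 1 to 4, against 10.9, 14.9, 13.6 and 19.1 CPM in vehicle tumors 0 to 3. Vehicle tumors gave both the lowest value (tumor 0) and the highest (tumor 3), so the SR59230A tumors lay inside the vehicle range. The log2 fold change was 0.10 ± 0.17 (SE), with a 95% interval of -0.29 to 0.49. Irgm2 had 8.76, 9.40, 11.7 and 6.83 CPM in SR59230A tumors 1 to 4, against 7.18, 7.91, 5.58 and 10.6 CPM in vehicle tumors 0 to 3. SR59230A tumor 3 was highest and vehicle tumor 3 next, and the log2 fold change was 0.23 ± 0.23 (SE), interval -0.28 to 0.74. Igtp, also called Irgm3, had 5.07, 9.51, 8.81 and 6.08 CPM in SR59230A tumors 1 to 4, against 5.71, 6.35, 5.28 and 12.6 CPM in vehicle tumors 0 to 3. Here vehicle tumor 3 was alone at the top, SR59230A tumor 1 was the lowest of all, and the log2 fold change was -0.02 ± 0.31 (SE), interval -0.72 to 0.68.

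Igtp and Irgm2 cannot be fully separated in these counts. The annotated genes overlap on the same strand, and 15.9% of the 31-base words in Igtp transcripts also occur in Irgm2. Summed over both genes, the level was 13.8, 18.9, 20.5 and 12.9 CPM in SR59230A tumors 1 to 4, against 12.9, 14.3, 10.9 and 23.2 CPM in vehicle tumors 0 to 3. Vehicle tumor 3 had the highest sum and SR59230A tumor 3 the next, and the groups overlapped, as they did for each gene alone (exact permutation p = 0.657). The division of reads among Irgm2 transcripts varied widely: the transcript that begins near the start of Igtp took 100% of Irgm2 reads in SR59230A tumor 3 and 34.5% in vehicle tumor 2.

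The guanylate-binding proteins, large GTPases that oligomerize on membranes, were low in every tumor. Gbp2 had 1.09, 1.40, 2.14 and 1.79 CPM in SR59230A tumors 1 to 4, against 0.663, 1.02, 0.875 and 2.26 CPM in vehicle tumors 0 to 3, resting on 18 to 66 reads a tumor. In CPM the 4 SR59230A tumors were each above the 3 lower vehicle tumors and below vehicle tumor 3. In TPM vehicle tumor 1 (0.950) was above SR59230A tumors 1, 2 and 4 (0.680, 0.938 and 0.764). The log2 fold change of Gbp2 was 0.41 ± 0.42 (SE) (interval -0.53 to 1.35; exact permutation p = 0.257), the smallest permutation p among the 10 genes. With transcript length offsets it was 0.22 ± 0.38 (SE). Without vehicle tumor 3 the log2 fold change of Gbp2 was 0.89 ± 0.36 (edgeR adjusted p = 0.563).

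Gbp3 had 2.32, 2.67, 3.16 and 1.85 CPM in SR59230A tumors 1 to 4, against 1.25, 2.05, 1.51 and 4.33 CPM in vehicle tumors 0 to 3. Vehicle tumors were again at both ends, and the log2 fold change was 0.13 ± 0.40 (SE), interval -0.75 to 1.02. Gbp4 had 2.48, 2.42, 4.57 and 1.92 CPM in SR59230A tumors 1 to 4, against 2.10, 1.95, 1.42 and 8.42 CPM in vehicle tumors 0 to 3. Vehicle tumor 3 was 4.01 times the next vehicle tumor, and the other 7 tumors lay between 1.42 and 4.57 CPM. The log2 fold change of Gbp4 was -0.28 ± 0.57 (SE) with all tumors (interval -1.55 to 0.99) and 0.64 ± 0.35 without vehicle tumor 3 (edgeR adjusted p = 0.653). Gbp7 had 7.53, 6.39, 8.47 and 3.78 CPM in SR59230A tumors 1 to 4, against 4.71, 5.16, 3.71 and 12.7 CPM in vehicle tumors 0 to 3. Its log2 fold change was -0.00 ± 0.40 (SE) with all tumors (interval -0.90 to 0.89) and 0.53 ± 0.28 without vehicle tumor 3 (edgeR adjusted p = 0.646).

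Sequence shared between paralogs limits how finely the guanylate-binding proteins can be told apart. Of the 31-base words in their transcripts, 14.3% of those of Gbp4 and 14.7% of those of Gbp7 occur in another gene, compared with 4.85% for Gbp2 and 5.64% for Gbp3. For Gbp4, 67.2% of all reads were assigned to a transcript annotated as a target of nonsense-mediated decay and 27.2% to one with a retained intron. The full-length coding transcript of Gbp4 was assigned reads in 1 of 8 tumors, vehicle tumor 2. It shares start, end and number of exons (11) with the nonsense-mediated decay transcript, their lengths being 4538 and 4509 bases. With 47 to 220 Gbp4 reads a tumor, how well these 2 transcripts can be told apart was not tested. The retained-intron share of Gbp4 was 29.6%, 5.4%, 18.0% and 39.1% in SR59230A tumors 1 to 4, against 52.8%, 14.2%, 13.5% and 40.3% in vehicle tumors 0 to 3. The groups overlapped, and the highest shares came from vehicle tumors 0 and 3 and SR59230A tumor 4, the libraries with satellite-like reads. Gbp3 reads went mainly to a single coding transcript (86.4% overall), except in SR59230A tumor 3, where 58.9% went to another.

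**Figure D2:**
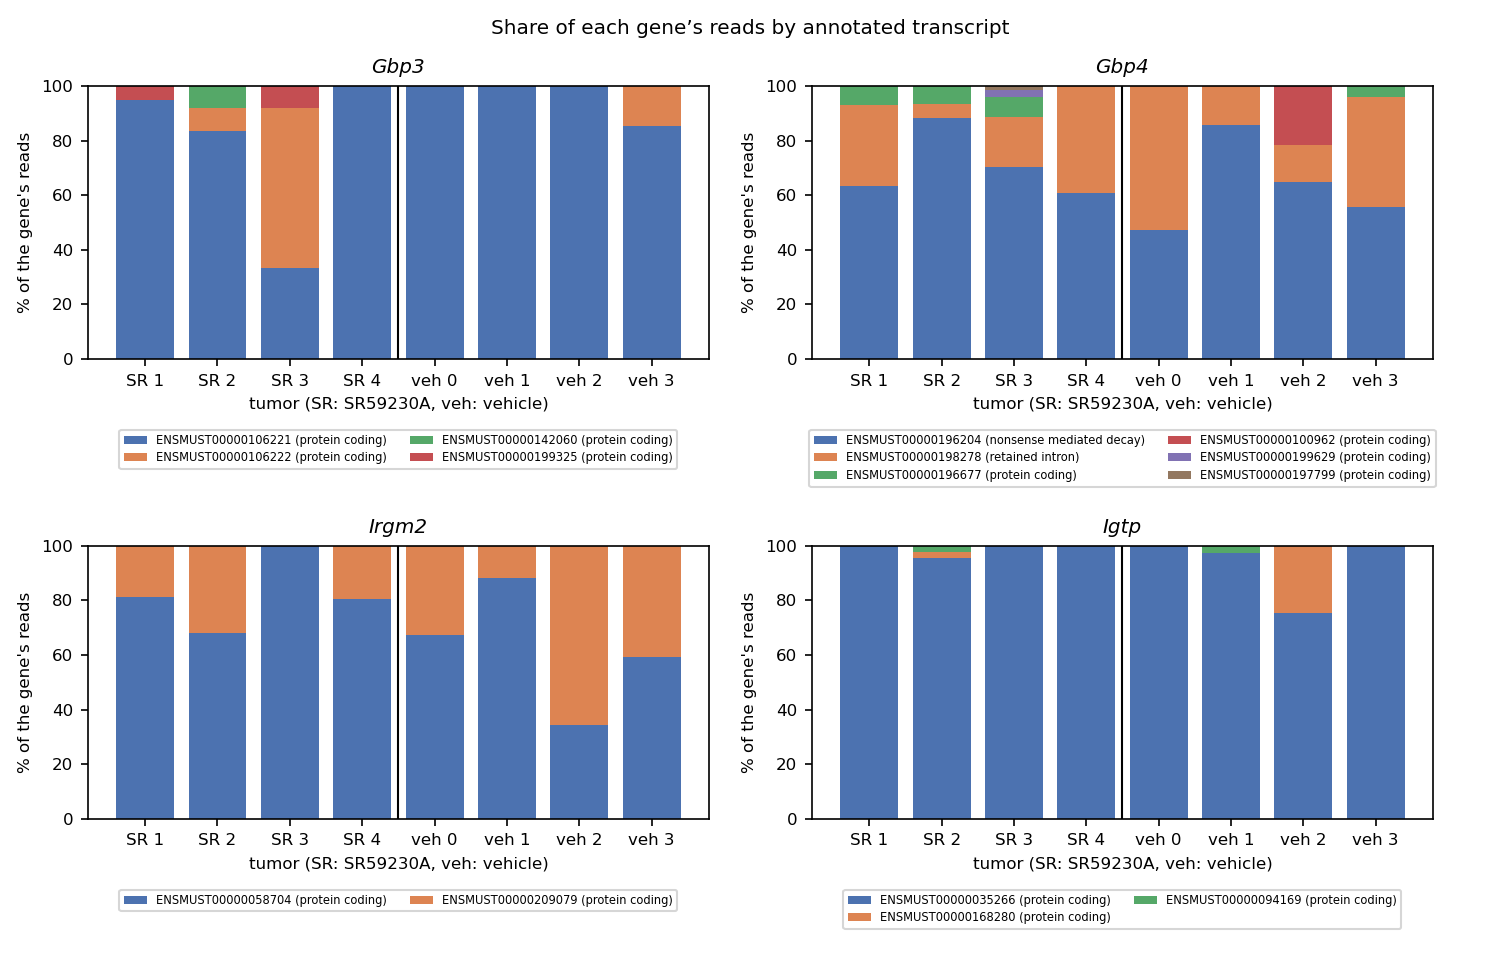
Share of each gene's reads (vertical axes, %) assigned to each annotated transcript of Gbp3, Gbp4, Irgm2 and Igtp, SR59230A tumors (SR) left of the line and vehicle tumors (veh) right. Gbp4 reads were assigned mainly to transcripts annotated as nonsense-mediated decay or retained intron. The nonsense-mediated decay transcript has the same start and end as the full-length coding one and nearly its length. The division among Irgm2 transcripts ran from 34.5% to 100% for the first.

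Of the chemokines, Cxcl9 had the widest interval of the 10 genes. It was near the detection limit, with 14, 20, 8 and 9 reads in SR59230A tumors 1 to 4, against 16, 22, 6 and 65 reads in vehicle tumors 0 to 3. In CPM it had 0.382, 0.425, 0.389 and 0.309 CPM in SR59230A tumors 1 to 4, against 0.589, 0.451, 0.181 and 2.49 CPM in vehicle tumors 0 to 3. The 4 SR59230A tumors differed little, and vehicle tumor 3 was 4.22 times the next vehicle tumor. The log2 fold change was -1.27 ± 0.70 (SE) (interval -2.83 to 0.29; exact permutation p = 0.571), the most negative of the 10. Without vehicle tumor 3 it was -0.10 ± 0.48 (edgeR adjusted p = 0.964).

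Cxcl10 had 1.99, 4.25, 12.2 and 3.19 CPM in SR59230A tumors 1 to 4, against 2.43, 3.55, 2.93 and 6.01 CPM in vehicle tumors 0 to 3. SR59230A tumor 3 was far above the rest, with vehicle tumor 3 next, and SR59230A tumor 1 was the lowest of all 8. The log2 fold change was 0.53 ± 0.54 (SE) (interval -0.70 to 1.75; exact permutation p = 0.714), the most positive of the 10. Without SR59230A tumor 3 it was -0.25 ± 0.38 (edgeR adjusted p = 1.00), so that tumor alone set the sign. The chemokines thus carried the extreme fold changes in opposite directions, each resting on 1 tumor.

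**Figure D3:**
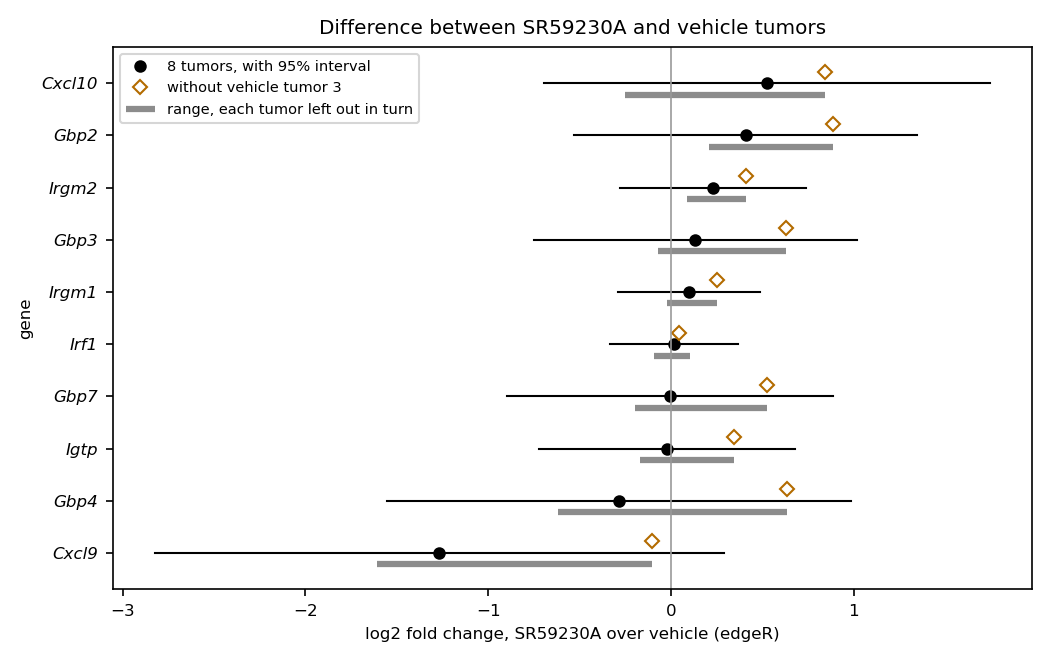
Log2 fold change of SR59230A over vehicle for each gene (horizontal axis), with all 8 tumors (filled circle, line for the 95% interval), without vehicle tumor 3 (diamond) and as a range when each tumor is left out in turn (gray bar). All 10 intervals cross 0, and the value without vehicle tumor 3 is the higher one for all 10 genes, for example 0.64 and -0.28 for Gbp4.

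Single tumors stood apart more clearly than the treatment groups did. In CPM, vehicle tumor 3 was the highest tumor for 7 genes (Gbp2, Gbp3, Gbp4, Gbp7, Irgm1, Igtp, Cxcl9) and first or second for 9, with Irf1 the exception. SR59230A tumor 3 was the highest for Cxcl10 and Irgm2 and first or second for 7. Vehicle tumors 0 and 2 were each the lowest for 4 genes and SR59230A tumor 1 for 2. Among the 45 pairs of the 10 genes, Pearson r of log2 CPM over the 8 tumors ran from 0.107 to 0.965 with a median of 0.734, and the median was 0.627 over the 7 tumors without vehicle tumor 3. The points share library, depth and scaling.

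**Figure D4:**
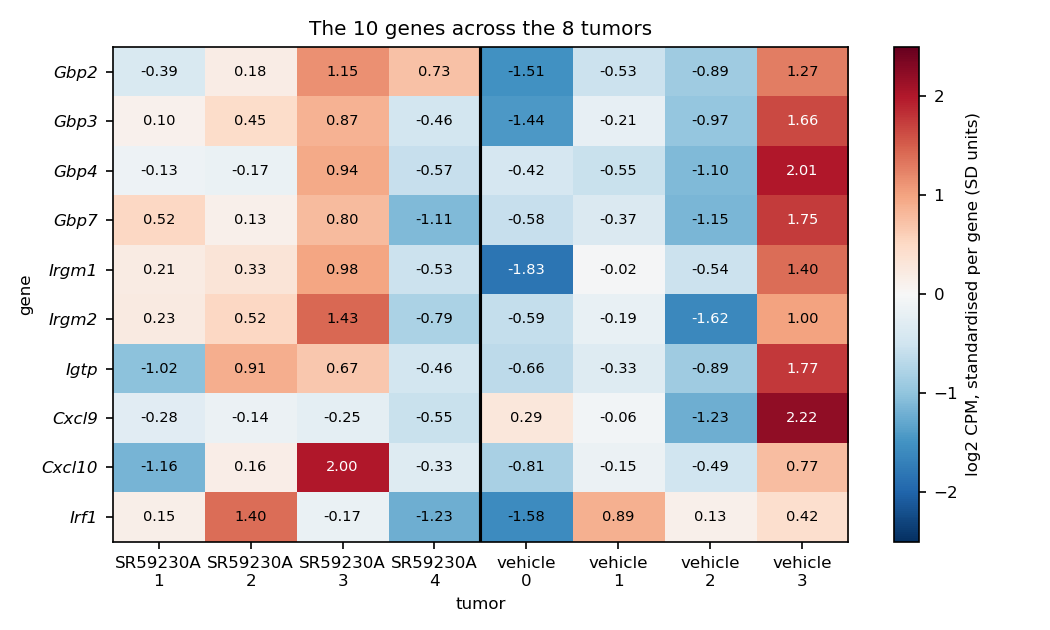
Log2 CPM of each gene, standardised over the 8 tumors (color and printed value, SD units), SR59230A tumors left of the line and vehicle tumors right. Vehicle tumor 3 and SR59230A tumor 3 are high for most genes, while Irf1 is highest in SR59230A tumor 2 (1.40) and lowest in vehicle tumor 0 (-1.58).

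The rank of vehicle tumor 3 depended on the scale. In TPM it was the highest tumor for 2 genes, Gbp4 and Cxcl9, and SR59230A tumor 2 was the highest for 5. Relative to CPM, the TPM of the median gene stood 0.46 lower on the log2 scale in vehicle tumor 3 and 0.34 higher in SR59230A tumor 2. Summed over the 10 genes, the level was 56.8, 75.7, 63.3 and 35.2 TPM in SR59230A tumors 1 to 4, against 31.4, 64.0, 53.0 and 51.0 TPM in vehicle tumors 0 to 3. The means were 57.8 ± 17.0 TPM in SR59230A tumors and 49.8 ± 13.6 TPM in vehicle tumors (SD, n = 4 each), with overlapping values.

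Library measures also set these tumors apart. Mitochondrially encoded transcripts took 7.47% of reads in SR59230A tumor 3 and 6.11% in vehicle tumor 3, against 1.30% to 3.61% in the other 6 tumors. Olfactory receptor models took 0.477% of reads in SR59230A tumor 3 and 0.644% in vehicle tumor 3, against 0.146% to 0.346% elsewhere. The part of these measures in the levels of the 10 genes was not tested. Without the 3 libraries that carry satellite-like reads, vehicle tumor 3 among them, the median log2 fold change of the 10 genes was 0.59, and it was 0.05 without the libraries that carry muscle reads; in both cases 0 of the 10 were called.

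Ifng and the NK cell markers were at the edge of detection, whereas some T cell and all macrophage markers were not. Ifng, which encodes the cytokine, had 0, 0, 0 and 1 reads in SR59230A tumors 1 to 4, against 1, 0, 1 and 2 reads in vehicle tumors 0 to 3. With 1 read in all SR59230A tumors and 4 in all vehicle tumors, no difference was detectable at this depth. The 8 NK and cytotoxic cell markers summed to 0.432 to 1.5 TPM in SR59230A tumors and 0.627 to 1.71 TPM in vehicle tumors, vehicle tumor 3 being highest, and 0 of them passed the filter. The 12 T cell markers summed to 9.56 to 12.5 TPM in SR59230A tumors and 10.9 to 15.8 TPM in vehicle tumors, and 5 passed the filter, 1 with a log2 fold change above 0 and 4 below, with 0 called and a median of -0.35. Lck, a kinase of the T cell receptor pathway, had 200, 354, 125 and 257 reads in SR59230A tumors 1 to 4, against 223, 436, 259 and 166 reads in vehicle tumors 0 to 3. Lck made up most of the T cell sum in every tumor. It had 5.59 to 9.28 TPM in SR59230A tumors and 5.83 to 9.54 TPM in vehicle tumors. Which cells the Lck reads came from was not tested. Trac, the constant part of a T cell receptor chain, had 0.546, 0.552, 0.487 and 0.378 CPM in SR59230A tumors 1 to 4, against 0.663, 0.963, 0.574 and 0.881 CPM in vehicle tumors 0 to 3, every SR59230A tumor being below every vehicle tumor (edgeR adjusted p = 0.998). It rested on 10 to 47 reads a tumor. Of the 5 T cell markers tested it was the 1 with groups that did not overlap, while 1.29% of all genes tested were likewise lower without overlap. Cd3e, a chain of the T cell receptor complex, had 0, 1, 1 and 1 reads in SR59230A tumors 1 to 4, against 2, 3, 1 and 6 reads in vehicle tumors 0 to 3. Cd3g and Cd3d, other chains of that complex, had 0 to 9 and 3 to 23 reads a tumor. The 12 macrophage markers summed to 170 to 388 TPM in SR59230A tumors and 154 to 308 TPM in vehicle tumors. Their highest sums came from SR59230A tumors 1 and 2. Of the 12, 10 had a log2 fold change above 0 and 2 below, with 0 called and a median of 0.30. The 3 with the smallest p were the complement genes C1qb (0.47 ± 0.24 (SE)) and C1qa (0.51 ± 0.29 (SE)), and Fcgr1 (-0.50 ± 0.27 (SE)), an Fc receptor gene whose SR59230A tumors were all below the vehicle tumors (edgeR adjusted p = 0.998). Fcgr1 was the 1 of the 12 macrophage markers without overlap, against the same 1.29% of all genes tested. The 12 neuroblast markers summed to 1453 to 1987 TPM in SR59230A tumors and 1483 to 2683 TPM in vehicle tumors, so the labelled tumor type was borne out by its markers in every library. Of these 12, 0 had a log2 fold change above 0, with 49.6% of all genes above 0. Their median was -0.41 and 0 were called. An unadjusted edgeR p under 0.05 was found for 4 of the 12, all lower in SR59230A tumors, with 4.58% of all genes below it. The groups did not overlap for 1 of the 12, lower in SR59230A tumors, while 1.29% of all genes did the same.

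The receptor and signalling genes of the pathway did not pass the test either. Of 13 such genes 12 were tested, 7 had a log2 fold change above 0 and 5 below, 0 were called, and their median was 0.03. Ifngr1, the ligand-binding chain, averaged 17.7 ± 1.51 CPM in SR59230A tumors and 17.4 ± 1.57 CPM in vehicle tumors (SD, n = 4 each), and Ifngr2, the second chain, 80.6 ± 11.6 CPM in SR59230A tumors and 76.6 ± 5.0 CPM in vehicle tumors (SD, n = 4 each). The smallest unadjusted p values of this list belonged to Jak1 (log2 fold change -0.10 ± 0.12 (SE)), Stat2 (0.08 ± 0.11 (SE)) and Ptpn6 (-0.17 ± 0.28 (SE)). Cxcr3, the receptor of both chemokines, had 1 to 9 reads a tumor in SR59230A tumors and 2 to 17 in vehicle tumors and was not tested.

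Relatives of the 10 genes were not called either. Of 7 other guanylate-binding proteins 4 were tested, 2 in each direction, with 0 called and a median log2 fold change of -0.10. Gbp5, which takes part in inflammasome assembly, had 6.85, 3.93, 13.9 and 5.97 CPM in SR59230A tumors 1 to 4, against 7.77, 3.77, 3.98 and 11.7 CPM in vehicle tumors 0 to 3, so that both tumors numbered 3 were again the highest. Gbp2b had a log2 fold change of -0.31 ± 0.59 (SE) and Gbp6 of -0.27 ± 0.57 (SE). Of 15 other immunity-related GTPases 10 were quantified and 7 tested, 4 above 0 and 3 below, with 0 called and a median of 0.03; the smallest unadjusted p values were those of Gm5431 (0.32 ± 0.34 (SE)), 9930111J21Rik1 (-0.29 ± 0.39 (SE)) and Tgtp2 (-0.33 ± 0.55 (SE)).

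None of the other targets of IFN-γ was called. Of 23 listed, 20 were tested, 8 above 0 and 12 below, with 0 called and a median of -0.07. The groups did not overlap for 1 of the 20, which was lower in SR59230A tumors, while 1.29% of all genes tested did the same. That gene, Gch1, which encodes GTP cyclohydrolase 1, the rate-limiting enzyme of tetrahydrobiopterin synthesis, had 79.3, 88.0, 86.0 and 90.1 CPM in SR59230A tumors 1 to 4, against 120, 119, 118 and 103 CPM in vehicle tumors 0 to 3. Its log2 fold change was -0.42 ± 0.10 (SE) in edgeR (adjusted p = 0.998) and -0.43 in DESeq2 (adjusted p = 0.0323), which is under the fold required for a call. Tetrahydrobiopterin is also the cofactor of tyrosine hydroxylase, the catecholamine enzyme of neuroblasts encoded by Th, and Th averaged 66.9 ± 18.8 CPM in SR59230A tumors and 116 ± 34.1 CPM in vehicle tumors (SD, n = 4 each); the part of neuroblast content in the Gch1 difference was not tested. Psmb10 (0.26 ± 0.19 (SE)), an immunoproteasome subunit, and B2m (-0.23 ± 0.18 (SE)), the light chain of MHC class I, followed by p.

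None of the genes better known as targets of type I interferon was called. Of 22 listed, 20 were tested, 15 with a log2 fold change above 0 and 5 below, with 49.6% of all genes tested above 0. Their median was 0.32, and 1 of the 20 had an unadjusted edgeR p under 0.05, with 4.58% of all genes below it. Bst2, which tethers budding virus, had 19.4, 20.7, 15.0 and 16.4 CPM in SR59230A tumors 1 to 4, against 10.9, 16.7, 13.4 and 14.1 CPM in vehicle tumors 0 to 3. The groups overlapped, and the log2 fold change was 0.38 ± 0.16 (SE) (edgeR adjusted p = 0.998). Xaf1 (0.45 ± 0.21 (SE)) and Oas1a (0.36 ± 0.21 (SE)), which encodes a sensor of double-stranded RNA, came next.

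The genes whose pattern over the 8 tumors was most like that of the 10 were found by Pearson r between their log2 CPM and the mean standardised log2 CPM of the 10, among 13566 genes of at least 1 CPM. They were Pqlc3 (r = 0.965), Ddx58 (0.947), which encodes the RNA sensor RIG-I, Iigp1 (0.945), an effector immunity-related GTPase, Tdrd9 (0.942) and Tlr4 (0.937), a receptor for bacterial lipopolysaccharide. Their points share library, depth and scaling with the 10. Iigp1 had 1.20, 2.23, 3.60 and 1.72 CPM in SR59230A tumors 1 to 4, against 0.921, 1.21, 0.634 and 5.36 CPM in vehicle tumors 0 to 3. Its highest tumors were the same pair numbered 3, which its choice by likeness to the 10 genes favors.

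Irf1 was set against each of the other 9 genes over the 8 tumors, since it is the transcription factor among them. In log2 CPM, 0 of 9 relations passed an adjusted p of 0.05 (exact permutation over all pairings, two-sided, Benjamini-Hochberg over 9). The closest was Irgm1, with Pearson r = 0.625 (exact permutation p = 0.0949, adjusted 0.715) and Spearman rho = 0.548 (exact permutation p = 0.171, adjusted 0.619). Without the 2 tumors farthest from the median of Irf1, vehicle tumor 0 and SR59230A tumor 4, r of Irf1 with Irgm1 was -0.141. Leaving them out also narrows the range of Irf1, which by itself can lower r. The other 8 genes had Pearson r from 0.107 (Cxcl9) to 0.532 (Gbp3), with adjusted p from 0.715 to 0.799. In log2(TPM + 0.5) the relation with Irgm1 alone passed, at r = 0.975 (exact permutation p = 4.96e-05, adjusted 0.000446) and 0.945 without the same tumors. All genes of a library share its TPM scaling, which moved the median gene by -0.46 to 0.34 on the log2 scale as given above.

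A separate deposited table of normalized values held 5 of the 10 genes (Gbp4, Irgm1, Irgm2, Igtp, Cxcl9). Its Igtp row was 0 except for 7.02 in SR59230A tumor 2 and 42.9 in vehicle tumor 2. Those were also the only tumors with reads on one minor Igtp transcript (10.5 and 43.1 reads), whereas the main transcript of Igtp, with 96.4% of reads, had 132 to 428 reads in every tumor. The Igtp row of that table was therefore not read as the level of the gene; the alternative fitted to that table includes it as deposited.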

How the data were processed

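RNA of 8 N2A tumors (SR59230A 1 to 4, vehicle 0 to 3) had been prepared as stranded total RNA and quantified by the authors with Salmon, and the deposited files give estimated counts and TPM per Ensembl transcript. The study's methods name Ensembl release GRCm38.98, while the submitters' processing notes list GRCm39. The deposited normalized counts, a DESeq2-scaled signal per gene symbol computed by the authors, hold 15035 symbols and were used in an alternative only; its column without a tumor number was kept as an unnumbered vehicle tumor.

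Estimated counts and TPM were summed per gene with GENCODE vM21 (115685 of 116747 transcripts matched, 99.1%), and counts were rounded. The 8 libraries held 23484190 to 44045575 reads. SR59230A was compared with vehicle by edgeR 4.0.16 (R 4.3.3; quasi-likelihood, robust, TMM, filterByExpr; Benjamini-Hochberg over all genes), with calls at an adjusted p below 0.05 and a log2 fold change of 0.5 or more in size, as the study's methods set them. DESeq2 1.42.0 (the authors' tool), limma 3.58.1 on log2(TPM + 0.5), log2(TPM + 0.1) and log2(normalized count + 1), other scalings, the replicate block and left-out tumors were alternatives. The test was checked on simulated counts that had the same dispersion for every gene. No simulated tumor stood apart from its group, so the check does not cover tumors that do, such as vehicle tumor 3. Exact permutation tests used all 70 assignments. The 10 genes and the lists were chosen with earlier results of these data known. Named from each list of IFN-γ pathway and interferon target genes were genes called by either tool, otherwise the 3 with the smallest edgeR p, and always Ifng and its receptors. Cxcr3 and the cell type markers with values (Lck, Trac, Cd3e, Cd3g, Cd3d, C1qa, C1qb, Fcgr1, Th) were named after their values were seen. Nothing in the labels says more of how the tumors were sampled; precision is limited by 4 tumors a group.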

Additional observations from a re-analysis of the deposited data

Results flagged for a closer look

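Within each treatment group of 4 tumors, the highest and lowest CPM of each of the 10 genes were compared with the spread of the others. In 3 of the 20 sets of 4 tumors the extreme tumor's gap to its neighbor was more than 0.829 of the whole range (Dixon's 95% limit), and chance alone would mark about 1 set in 20. All 3 were vehicle tumor 3: Gbp4 at 8.42 CPM (gap over range 0.903), Gbp7 at 12.7 CPM (0.838) and Igtp at 12.6 CPM (0.854). In log2 CPM the gap of vehicle tumor 3 was below the same limit for all 3 genes. The genes share libraries, so these are not independent marks. The same library had 8.65% of its reads on satellite-like models and 6.11% on mitochondrially encoded transcripts, and their part in the 3 values was not tested.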

How the results depend on the processing

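No alternative called any of the 10 genes, and the median log2 fold change of the 10 moved beyond the spread between tumors under 1 alternative, chosen after seeing the data: without the 3 libraries with satellite-like reads it was 0.59. Leaving out single tumors gave medians from -0.08 to 0.47, the highest without vehicle tumor 3, and log2 fold changes of -0.071 to 0.63 for Gbp3, -0.61 to 0.64 for Gbp4, -0.20 to 0.53 for Gbp7, -0.018 to 0.25 for Irgm1, -0.17 to 0.35 for Igtp, -0.25 to 0.85 for Cxcl10 and -0.094 to 0.10 for Irf1. Of 205 fold changes recomputed, 165 kept their sign and 40 did not, all below the call. Gbp4 was 0.25 in log2(TPM + 0.5), 0.35 in log2(TPM + 0.1), 0.32 in the deposited normalized counts, 0.54 in tumors 1 and 2 alone, and 0.91 without the satellite-like libraries. Gbp7 was 0.13, 0.15, 0.65 and 0.76 under the same TPM scales, tumor choice and library choice, 0.019 without the filter, and 0.021 with transcript length offsets. Igtp was 0.070 and 0.073 on the TPM scales, 0.33 in tumors 1 and 2 and 0.43 without the satellite-like libraries. Cxcl9 was 0.31 in tumors 1 and 2 and 0.32 without the satellite-like libraries, and Cxcl10 was -0.049 in tumors 1 and 2. In the tumors other than 1 and 2, Gbp3 was -0.16 and Irf1 -0.046, and without the muscle libraries Irf1 was -0.16. The cause of these sign changes was not tested.

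Whether tumor numbers pair the groups was not tested. The correlation of deviations between tumors of the same number was 0.00939, 0.592 and 0.501 for tumors 1, 2 and 3. The vehicle tumors with the highest correlation to SR59230A tumors 1, 2 and 3 were tumors 3, 1 and 3. With the replicate block on tumors 1 to 3, Gbp4 was 0.072, Gbp7 0.25, Igtp 0.0033 and Irf1 -0.00043, with 0 of the 10 called; without the block the same tumors gave 0.054 for Gbp7.

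For Irf1, 1 of 9 relations passed in log2(TPM + 0.5) (Irgm1, 0.975), where that with Cxcl9 was -0.0284. Without the 2 farthest tumors r was -0.164 for Gbp2, -0.00325 for Gbp3, -0.208 for Gbp4, -0.141 for Gbp7, -0.141 for Irgm1, -0.0284 for Irgm2 and -0.221 for Cxcl10.

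Low counts limit Cxcl9, at 6 to 65 reads a tumor, and Gbp2, at 18 to 66; the interval of Cxcl9 is 3.12 wide on the log2 scale and that of Irf1 0.70.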
